A study of Homo sapiens with 10 samples.

Results

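The comparison described here asked how transcript levels differed between K562 cells in which dCas9-KRAB was directed to the HS2 enhancer and K562 cells carrying a nontargeting guide. K562 is a human chronic myelogenous leukemia line with erythroid features that expresses the embryonic and fetal globins. The members were the 4 libraries, of 10 in the series, titled dCas9-KRAB with sgHS2 (2 libraries, K hereafter) or sgGal4 (2 libraries). The other 6 libraries came from K562 cells with sgHS2 and dCas9-LSD1 (L), enCRISPRi-LK (LK) or enCRISPRi-KL (KL), with 2 libraries in each group. Per the study's methods, the dCas9 fusions were expressed from a doxycycline-inducible lentiviral promoter, sgHS2 was a pool of guides, sgGal4 was a nontargeting guide, and cells carrying the guides were sorted on a fluorescent marker. LK paired dCas9-LSD1 with an RNA-tethered KRAB domain, and KL paired dCas9-KRAB with RNA-tethered LSD1. The labels do not say which dCas9 fusion the sgGal4 cells carried, and they give neither clone nor culture for any library, so the p-values below measure only the spread between these libraries, which may be technical.

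HS2 is a DNase I hypersensitive site of the locus control region, the enhancer cluster that lies upstream of the β-like globin genes and drives their expression in erythroid cells in the order of development: HBE1 in the embryo, HBG1 and HBG2 in the fetus, HBD and HBB in the adult. KRAB is a repressor domain taken from a zinc finger protein. It recruits the corepressor TRIM28 and, through it, histone methyltransferases that build heterochromatin, and dCas9 is a Cas9 that binds where its guide directs it but does not cut.

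Expression was measured by RNA-seq as TPM, a level corrected for transcript length and scaled to a common total within each library. The tables listed 20535 genes, of which 10127 averaged 1 TPM or more across the 10 libraries and entered the tests. Depth is not given by TPM, so no counting interval or floor could be set, and a value of 0 is given as listed at 0. Between the 2 K libraries the correlation of log2(TPM + 1) over genes was 0.958, between the 2 sgGal4 libraries it was 0.964, and across the arms it ranged from 0.937 to 0.943. These correlations are across genes, which are not independent replicates. The protein genes of the mitochondrial genome made up 53.6% of the listed TPM in sgGal4 replicate 1 and 39.9 to 46.6% in the other 9 libraries. The K562 markers HBE1, HBG1, HBG2, HBZ, TFRC, ALAS2 and TAL1 were expressed in every library of both arms. GATA1, the master erythroid regulator, was listed at 0 in all 10 libraries, as were 400 of 731 X-linked genes with a position in the annotation, so nothing can be read from it.

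The labels were checked first through the gene that supplies the KRAB domain. In the libraries labelled dCas9-KRAB, ZNF10 stood at 1.18 and 3.80 TPM, and in sgGal4 it stood at 0.97 and 1.89 TPM, a log2 fold change of 0.44 (SE 0.329, adjusted p = 0.566). In the groups labelled L, LK and KL it ranged from 31.5 to 365 TPM. The high groups thus included L, whose label names dCas9-LSD1 and not KRAB. The libraries labelled dCas9-KRAB were therefore low in ZNF10, like sgGal4 and unlike the other sgHS2 libraries, and whether reads of the fusion transcript could have been counted toward ZNF10 is not given in the sources used here. KDM1A, which encodes LSD1, stood at 29.2 and 27.7 TPM in K, 25.2 and 33.5 TPM in sgGal4, and 84.2 to 105 TPM in L. K is used below as the name the labels give, and every direction rests on that label.

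Among the β-like globin genes, HBE1 fell to 48.5% of its sgGal4 mean in K, HBD rose to 212% of it, and the γ-globin genes and HBB did not pass the test. HBE1, which encodes embryonic ε-globin, was measured at 695 and 759 TPM in K and at 1376 and 1620 TPM in sgGal4. The arms did not overlap, as was the case for 43.6% of all genes, and the log2 fold change was -1.04 (SE 0.129, limma adjusted p = 0.00297). Over all genes tested, 1.62% passed the same threshold, an adjusted p under 0.05, in either direction. HBE1 kept its call without each of the 4 libraries in turn. In bulk RNA, fewer cells of a type and less RNA per cell cannot be told apart, so these values do not separate a lower level in all cells from silencing in some.

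HBG1 and HBG2 encode the Aγ and Gγ chains of fetal hemoglobin and are near-identical copies. Reads mapping to more than one place had been dropped before quantification, so the split between them is uncertain and their sum is the safer value. HBG2 was at 698 and 581 TPM in K and at 941 and 673 TPM in sgGal4, and the arms overlapped (log2 fold change -0.32, SE 0.159, adjusted p = 0.348). HBG1 was at 132 TPM in each K library and at 118 and 99.4 TPM in sgGal4, slightly higher in both K libraries than in any of the other 8 (log2 fold change 0.28, SE 0.197, adjusted p = 0.535). Their sum stood at 829 and 712 TPM in K and at 1059 and 773 TPM in sgGal4. The difference of -0.23 had a 95% interval of -0.55 to 0.09 (adjusted p = 0.486), so a change of summed γ-globin transcripts was not detectable with these libraries.

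HBD encodes the δ chain of the minor adult hemoglobin. Its level was 41.1 and 39.1 TPM in K and 19.4 and 18.5 TPM in sgGal4, and the other 6 libraries lay between 15.2 and 22.0 TPM, so both K libraries exceeded all 8 others. Of all genes tested, 3.36% had both K libraries above all 8 others. The log2 fold change of HBD over sgGal4 was 1.04 (SE 0.245, adjusted p = 0.049), just inside the threshold, and the call was lost when any single library was left out (adjusted p from 0.103 without sgGal4 replicate 2 to 0.184 without K replicate 1). HBB, the adult β-globin gene, was barely expressed, at 6.36 and 2.64 TPM in K and 4.70 and 2.91 TPM in sgGal4 (log2 fold change 0.13, SE 0.652, adjusted p = 0.948).

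Summed over the 5 genes, β-like globin transcripts stood at 1572 and 1513 TPM in K and at 2459 and 2414 TPM in sgGal4. The K mean was 63.3% of the sgGal4 mean, and the log2 fold change was -0.66 (95% interval -0.87 to -0.45, adjusted p = 0.00495). Without K replicate 2 the adjusted p was 0.0726. HBE1 supplied 44.2 and 50.2% of this sum in K against 56.0 and 67.1% in sgGal4, HBG1 and HBG2 together 52.7 and 47.1% against 43.1 and 32.0%, and HBD 2.62 and 2.59% against 0.788 and 0.766%. The share of HBE1 was lower, and those of the γ-globins and HBD higher, in both K libraries than in either sgGal4 library. These shares were computed as a description and carry no test.

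**Figure D1:**
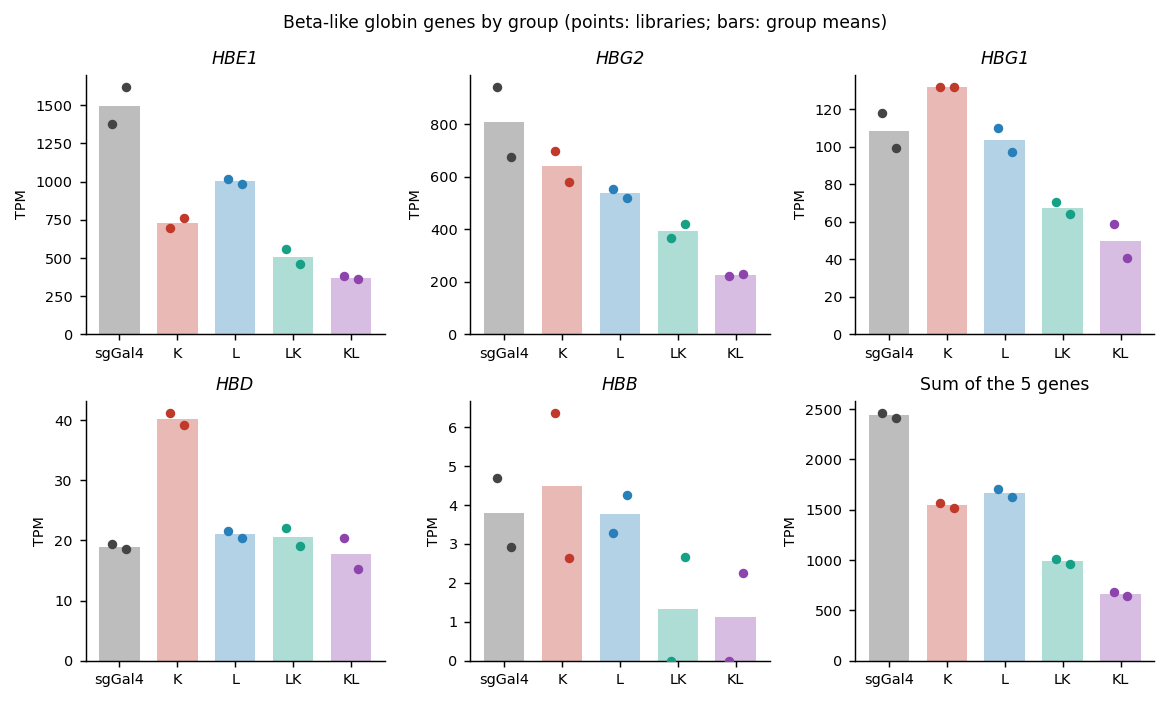
TPM (linear axes from 0) of the 5 β-like globin genes and of their sum in sgGal4, K, L, LK and KL, with a point for each library and a bar for each group mean of 2 libraries. HBE1 lay at 695 and 759 TPM in K against 1376 and 1620 TPM in sgGal4, whereas HBD was highest in the 2 K libraries, at 41.1 and 39.1 TPM.

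On chromosome 11, minus strand, the β-like genes are ordered with HBB at 5246694-5248301, HBD at 5254068-5255713, HBG1 at 5269499-5271087, HBG2 at 5274418-5276011 and HBE1 at 5289575-5291175 (hg19, canonical transcripts of the GENCODE lift to that build). HBD was the one β-like gene of the 5 with a promoter in the RefSeq set used here. Its 250 bases upstream of the start are shown because HBD moved opposite to HBE1 (GRCh38.p14). Capitals mark a CCAAT box on the strand of the gene, from 153 to 149 bases upstream, and a GATA motif on the other strand, from 78 to 73 bases upstream.
HBD (chr11:5234484-5234733, minus strand): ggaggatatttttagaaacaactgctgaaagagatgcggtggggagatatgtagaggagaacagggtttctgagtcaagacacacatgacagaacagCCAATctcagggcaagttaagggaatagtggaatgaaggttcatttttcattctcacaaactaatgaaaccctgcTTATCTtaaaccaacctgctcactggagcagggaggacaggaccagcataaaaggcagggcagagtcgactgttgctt
The CCAAT box (CCAAT or ATTGG) occurred in 32% of 35116 RefSeq promoter windows of that length and the GATA motif (AGATAA or TTATCT) in 9.17%. The CACCC box (CACCC or GGGTG), present in 54.7% of windows, is not in the HBD window. The motifs were searched on both strands, and a match is a description of letters only.

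Genes around the cluster were compared in the same fit, since a repressor at an enhancer can in principle act on neighbours. Within 2 Mb on either side of the cluster, 104 other genes were listed, 54 of them at 0 in every library, and 25 were tested. None of the 25 passed the limma test, with adjusted p-values from 0.158 to 0.989. At an unadjusted p under 0.05 there were 2 of the 25, both higher in K, against 15.6% of all genes (1581 of 10127). The median log2 fold change of the 25 was 0.15 against 0.06 over all genes. On the HBE1 side, the nearest tested gene was the olfactory receptor gene OR51B4 (11:5322244-5323176), at 43.8 and 34.5 TPM in K and 37.6 and 53.4 TPM in sgGal4 (log2 fold change -0.20, SE 0.244, adjusted p = 0.745). On the HBB side the nearest gene was OR51V1, listed at 0 in these 4 libraries, and the nearest tested gene was TRIM68 (log2 fold change 0.86, SE 0.499, adjusted p = 0.436). OR51I1, with the lowest adjusted p of the 25, was at 22.3 and 17.1 TPM in K and at 8.82 and 11.6 TPM in sgGal4 (log2 fold change 0.88, adjusted p = 0.158). The 2 most abundant, TAF10 and NUP98, had log2 fold changes of 0.02 (adjusted p = 0.975) and 0.32 (adjusted p = 0.486).

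The α-like globins, which pair with the β-like chains but are controlled from another chromosome, did not pass the limma test, with 2 of 4 tested at an unadjusted p under 0.05 against 15.6% of all genes. HBZ, the embryonic ζ-globin gene, was at 1345 and 1340 TPM in K and at 1034 and 940 TPM in sgGal4 (log2 fold change 0.45, SE 0.142, adjusted p = 0.139). The α-globin copies HBA1 and HBA2, which share reads, had log2 fold changes of -0.63 (adjusted p = 0.304) and 0.42 (adjusted p = 0.792), HBQ1 of 0.22 (adjusted p = 0.718), and HBM was listed at 0 throughout. Summed α-like globin transcripts stood at 1432 and 1478 TPM in K and at 1202 and 1062 TPM in sgGal4 (log2 fold change 0.36, adjusted p = 0.222). The ratio of summed β-like to summed α-like TPM was 1.10 and 1.02 in K and 2.05 and 2.27 in sgGal4, a description that follows from the 2 sums.

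Among 24 tested erythroid transcription factors and globin switching regulators, 1 was called, KLF1, which rose, against 1.62% of all genes called in either direction, so a single call is near the background. KLF1, which activates adult β-globin and many other erythroid genes, stood at 46.4 and 40.9 TPM in K and at 20.3 and 24.1 TPM in sgGal4 (log2 fold change 0.95, SE 0.212, adjusted p = 0.0392). In the other sgHS2 libraries it was at 35.9 to 52.4 TPM, the range in which both K libraries fell. The call was lost without K replicate 1 (adjusted p = 0.176), K replicate 2 (0.129) or sgGal4 replicate 1 (0.171). BCL11A, a repressor of γ-globin, was at 4.58 and 4.75 TPM in K and 1.20 and 1.72 TPM in sgGal4 and did not pass (log2 fold change 1.21, SE 0.414, adjusted p = 0.164). GATA2, TAL1 and NFE2, which act at erythroid enhancers, had log2 fold changes of -0.06, 0.44 and -0.05 and adjusted p-values of 0.919, 0.611 and 0.919.

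Of 19 red cell membrane and carbonic anhydrase genes tested, 2 rose and none fell, against 0.879% of all genes called higher. AQP1, the water channel of the red cell membrane, was at 7.37 and 7.85 TPM in K and at 0.79 and 1.25 TPM in sgGal4 (log2 fold change 2.10, SE 0.396, adjusted p = 0.0182), a call kept without sgGal4 replicate 2 and lost without any other single library (adjusted p from 0.0925 to 0.125). CA1, a red cell carbonic anhydrase, was at 5.21 and 9.91 TPM in K and at 0.92 and 0 TPM in sgGal4 (log2 fold change 2.57, SE 0.603, adjusted p = 0.049), and its call was lost when any single library was left out. The list as a whole had a median log2 fold change of -0.06, with 3 genes lower and 3 higher at an unadjusted p under 0.05. Under median-of-ratios size factors, quantile normalization or removal of mitochondrial genes, limma called 1 gene of the list higher and 1 lower. With a minimum mean of 10 TPM it called 1 lower and none higher. None of 17 heme genes or 11 iron genes was called by limma, with 3 of each list at an unadjusted p under 0.05 against 15.6% of all genes. BLVRB and UROD, the most abundant of the former, had log2 fold changes of 0.26 (adjusted p = 0.361) and 0.09 (adjusted p = 0.826), and the ferritin genes FTL and FTH1 of -0.29 (adjusted p = 0.165) and -0.02 (adjusted p = 0.962). ALAS2, the erythroid enzyme that starts heme synthesis, stood at 64.9 and 50.5 TPM in K and 33.3 and 35.1 TPM in sgGal4 (log2 fold change 0.73, adjusted p = 0.092).

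Across the transcriptome, 164 of 10127 genes were called between K and sgGal4, 89 of them higher (0.879% of genes) and 75 lower (0.741%) in K. The count was between 9 without K replicate 2 and 231 without sgGal4 replicate 2, with 43 without K replicate 1 and 46 without sgGal4 replicate 1. Of the 164 calls, 6 were kept when each of the 4 libraries was left out in turn, those of HBE1, SCD, DDIT4, SLC2A3, NEFH and APOC1, and 45 were lost whichever library was left out. With each library rescaled after removing mitochondrial genes, 71 genes were higher and 138 lower, so the balance of directions depends on the scaling. That rescaling moved the median of all genes from a log2 value of 0.06 to -0.06. Of the 164 genes, 98 had an absolute log2 fold change of at least 1, 55 lower and 43 higher. GAPDH, often used as a reference gene, was at 2029 and 1684 TPM in K and 1294 and 1777 TPM in sgGal4 (log2 fold change 0.29, adjusted p = 0.34).

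**Figure D2:**
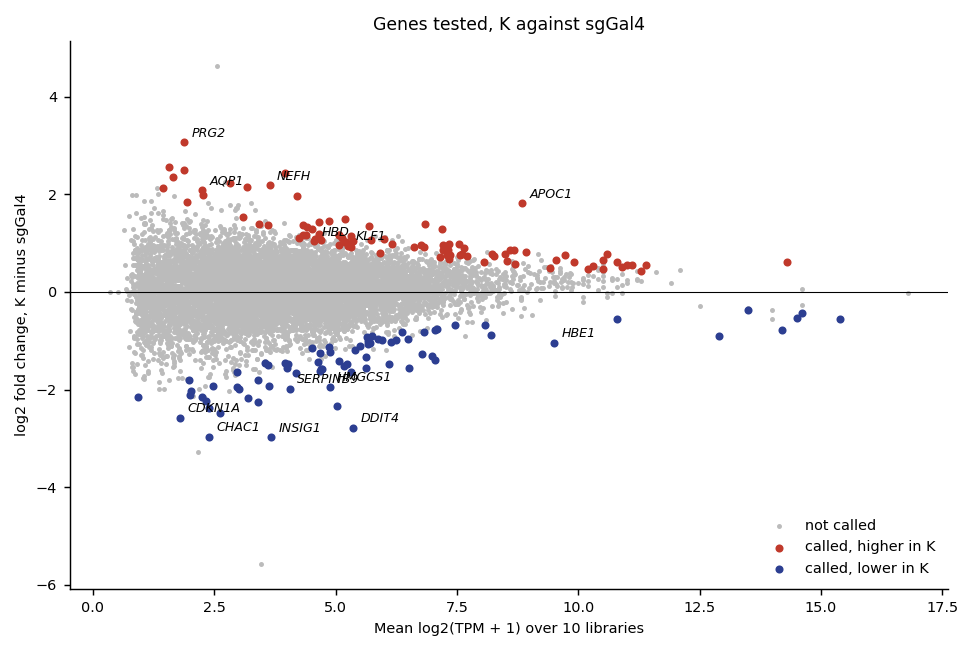
Log2 fold change of K minus sgGal4 (vertical axis) against the mean of log2(TPM + 1) over 10 libraries (horizontal axis) for 10127 genes, with the 89 genes called higher in red and the 75 called lower in blue. HBE1, at -1.04, and APOC1, at 1.82, are called genes of high expression, and most of the largest called changes lie at low expression.

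Genes of sterol synthesis were lower in K than in sgGal4 as a group. Cells make cholesterol from acetyl-CoA through the mevalonate pathway and then from squalene through a series of sterol intermediates, and the transcription factor SREBP2 switches these enzymes on together when membrane sterol is low. Of the 20 enzymes tested, all had a log2 fold change below 0, against 45.4% of all genes, with a median of -1.07, and 7 were called lower and none higher. Of all genes tested, 0.741% were called lower. Without the mean-variance trend 0 of the 20 enzymes were called, and without a filter on low values 4 were called lower. The median stayed between -1.20 and -0.93 in all 13 alternatives, whereas the number of calls was 0 without K replicate 2, 2 without K replicate 1, 3 without sgGal4 replicate 1 and 5 without sgGal4 replicate 2.

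In the mevalonate branch, HMGCS1, which makes HMG-CoA, stood at 20.1 and 21.9 TPM in K and at 66.2 and 105 TPM in sgGal4 (log2 fold change -1.94, SE 0.294, adjusted p = 0.00549). IDI1, an isopentenyl diphosphate isomerase, was at 36.6 and 23.1 TPM in K and at 86.3 and 102 TPM in sgGal4 (log2 fold change -1.65, SE 0.243, adjusted p = 0.00495). FDFT1, squalene synthase, was at 84.4 and 61.9 TPM in K and at 194 and 233 TPM in sgGal4 (log2 fold change -1.55, SE 0.198, adjusted p = 0.00297). GGPS1, which makes geranylgeranyl diphosphate, was at 34.2 and 34.7 TPM in K and at 64.0 and 77.7 TPM in sgGal4 (log2 fold change -1.01, adjusted p = 0.0267). The limma call of GGPS1 was lost with only the compared groups in the fit (adjusted p = 0.108) and without the mean-variance trend (0.129). It was also lost when any single library was left out, with log2 fold changes from -1.15 to -0.87.

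Beyond squalene, SQLE, the squalene epoxidase, was at 24.3 and 30.2 TPM in K and at 73.2 and 75.1 TPM in sgGal4 (log2 fold change -1.42, SE 0.238, adjusted p = 0.00986). MSMO1, a sterol demethylation enzyme, was at 6.92 and 6.16 TPM in K and at 36.0 and 30.1 TPM in sgGal4 (log2 fold change -2.17, SE 0.409, adjusted p = 0.0182). CYP51A1, lanosterol demethylase, was at 19.8 and 16.2 TPM in K and at 41.5 and 39.7 TPM in sgGal4 (log2 fold change -1.14, SE 0.24, adjusted p = 0.0334). The limma call of CYP51A1 was lost with only the compared groups in the fit (adjusted p = 0.114).

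Among 15 genes that regulate SREBP or move cholesterol, INSIG1 alone was called, against 0.741% of all genes called lower. INSIG1 retains the SREBP complex in the endoplasmic reticulum and is itself an SREBP target. Its level was 5.17 and 5.68 TPM in K and 38.1 and 64.5 TPM in sgGal4, which was the largest fall among called genes (log2 fold change -2.98, SE 0.441, adjusted p = 0.00499). The limma call of INSIG1 was lost without a filter on low values (adjusted p = 0.0687) and without the mean-variance trend (adjusted p = 0.0611). SREBF2, which encodes SREBP2, had a log2 fold change of -1.08 (adjusted p = 0.0701).

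In the list of fatty acid synthesis and desaturation, 4 of 12 tested genes fell and none rose, with a median of -0.72, against 0.741% of all genes called lower. Without the mean-variance trend 0 of the 12 were called, and without a filter on low values 2 were called lower. FADS2 and FADS1, the desaturases of polyunsaturated fatty acids, were at 2.32 and 1.48 TPM and at 107 and 85.3 TPM in K, and at 16.7 and 13.6 TPM and at 272 and 238 TPM in sgGal4. Their log2 fold changes were -2.49 (SE 0.433, adjusted p = 0.0119) and -1.40 (SE 0.184, adjusted p = 0.00333). SCD, which makes monounsaturated fatty acids, was at 88.6 and 84.3 TPM in K and 194 and 229 TPM in sgGal4 (log2 fold change -1.27, SE 0.162, adjusted p = 0.00297), a call kept without each of the 4 libraries. FASN, fatty acid synthase, was at 144 and 116 TPM in K and 210 and 230 TPM in sgGal4 (log2 fold change -0.76, adjusted p = 0.0448). The limma call of FASN was lost with only the compared groups in the fit (adjusted p = 0.143) and without the mean-variance trend (0.219). It was also lost when any single library was left out, with log2 fold changes from -0.91 to -0.60. The number of calls in this list was 2, 1, 2 and 3 without K replicate 1, K replicate 2, sgGal4 replicate 1 and sgGal4 replicate 2.

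Genes tied to ATF4, a transcription factor that is translated when amino acids run short or proteins misfold and that switches on amino acid synthesis and transport, were also lower. Of 19 tested, 17 had a log2 fold change below 0, against 45.4% of all genes, and the median was -0.96. Of these genes 6 were called lower and none higher, against 0.741% of all genes called lower. Without the mean-variance trend 2 were called lower, and without a filter on low values 4 were. The number of calls was 5, 1, 5 and 4 without K replicate 1, K replicate 2, sgGal4 replicate 1 and sgGal4 replicate 2. CHAC1, which degrades glutathione, was at 1.81 and 1.83 TPM in K and at 16.7 and 26.8 TPM in sgGal4 (log2 fold change -2.97, SE 0.42, adjusted p = 0.00385). DDIT4, an inhibitor of mTORC1, was at 25.4 and 22.2 TPM in K and 146 and 195 TPM in sgGal4 (log2 fold change -2.78, SE 0.239, adjusted p = 6.75e-05), a call kept in all 13 alternatives.

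ASNS, asparagine synthetase, was at 32.9 and 22.3 TPM in K and 74.8 and 79.9 TPM in sgGal4 (log2 fold change -1.48, SE 0.233, adjusted p = 0.0068). ATF3, a stress-induced transcription factor, fell by 1.94 on the log2 scale (adjusted p = 0.0172), GDF15, a stress cytokine, by 1.63 (adjusted p = 0.0119) and VEGFA, the angiogenic growth factor, by 1.19 (adjusted p = 0.00986). The ATF4 transcript itself was at 120 and 115 TPM in K and 124 and 164 TPM in sgGal4 (log2 fold change -0.28, adjusted p = 0.458). DDIT3 and TRIB3, which act downstream of ATF4, had log2 fold changes of -0.96 (adjusted p = 0.115) and -1.17 (adjusted p = 0.111).

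Lists that serve amino acid supply held few calls. Of 14 amino acid transporters, SLC7A11, the cystine carrier, and SLC38A2, a carrier of neutral amino acids, fell by 1.80 (adjusted p = 0.037) and 1.32 (adjusted p = 0.00385) on the log2 scale, against 0.741% of all genes called lower. SLC7A11 lost its call when any single library was left out (adjusted p from 0.123 to 0.159). Of 19 cytosolic aminoacyl-tRNA synthetases, AARS and GARS fell by 0.91 (adjusted p = 0.0448) and 0.79 (adjusted p = 0.0375), against the same background. Both calls were lost when any single library was left out (adjusted p from 0.0594 to 0.223 for AARS and from 0.0907 to 0.186 for GARS). None of 13 serine and one-carbon genes was called by limma, and 4 had an unadjusted p under 0.05 against 15.6% of all genes, with CBS at a log2 fold change of 0.08 (adjusted p = 0.887) and SHMT2 at -0.02 (adjusted p = 0.979). Among 18 genes of the endoplasmic reticulum stress response, the chaperone gene CALR rose, from 210 and 305 TPM in sgGal4 to 461 and 410 TPM in K (log2 fold change 0.78, adjusted p = 0.0304), against 0.879% of all genes called higher. Its call was kept without sgGal4 replicate 2 and lost without any other single library (adjusted p from 0.112 to 0.161).

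**Figure D3:**
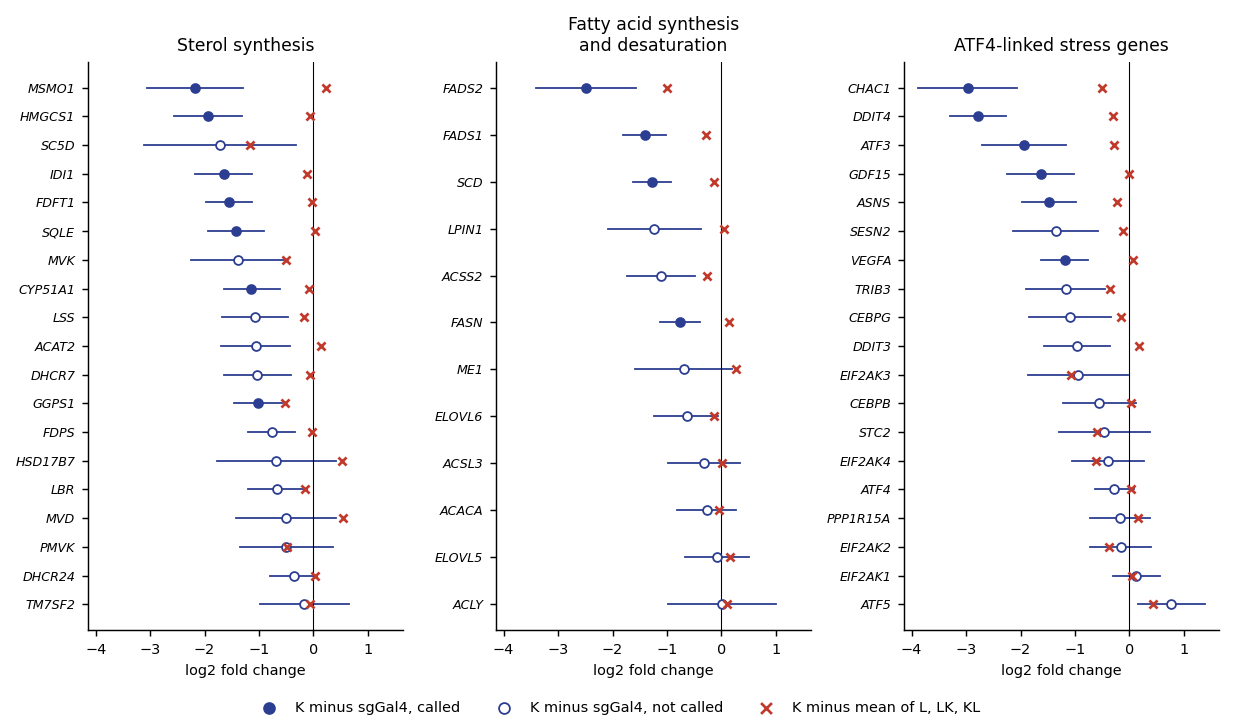
Log2 fold changes (horizontal axes) of tested sterol, fatty acid and ATF4-linked genes. Circles give K minus sgGal4 with the 95% interval, filled where the gene was called, and crosses give K minus the mean of L, LK and KL. The sterol circles all lie below 0, whereas the median over the sterol list of K minus the other groups was -0.06.

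These differences were called against sgGal4, whereas none was called against the other sgHS2 groups. Against the mean of L, LK and KL, the median log2 fold change of K was -0.06 over the 20 sterol genes, -0.02 over the fatty acid list and -0.16 over the ATF4-linked list, and limma called no member of the 3 lists, with 2, 1 and 2 members at an unadjusted p under 0.05 against 7.03% of all genes in that comparison. Summed TPM of the sterol genes was 481 and 452 in K, 961 and 1153 in sgGal4, and 438 to 536 in the other 6 libraries. Every sgHS2 library was thus below both sgGal4 libraries. The same sum for ATF4-linked genes was 488 and 439 in K, 753 and 964 in sgGal4, and 351 to 576 in the other 6. The design holds sgGal4 as the one group without sgHS2, so the guide and any other difference in how the sgGal4 cells were handled cannot be told apart.

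Stretches upstream of 3 genes that fell are shown for a pair of motifs: the CCAAT box, which NF-Y binds, also beside SREBP sites, and the amino acid response motif TGATGNAA, which ATF4 and C/EBP proteins bind. Capitals mark the CCAAT box in INSIG1 (on the other strand, 170 to 166 bases upstream). They also mark the amino acid response motif in CHAC1 (on the other strand, 209 to 202 bases upstream) and in ASNS (68 to 61 bases upstream, the first of its 2 listed starts). CHAC1 also held CCAAT boxes, left in lower case, at 167 to 163 and 80 to 76 bases upstream and, on the other strand, 107 to 103. The windows are the 250 bases upstream of the RefSeq start in GRCh38.p14.
INSIG1 (chr7:155297628-155297877, plus strand): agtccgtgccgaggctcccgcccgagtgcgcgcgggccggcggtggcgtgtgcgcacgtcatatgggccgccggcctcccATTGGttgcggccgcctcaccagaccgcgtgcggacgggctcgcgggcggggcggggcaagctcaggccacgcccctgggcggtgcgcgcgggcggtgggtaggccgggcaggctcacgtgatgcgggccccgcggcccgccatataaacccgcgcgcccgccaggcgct
CHAC1 (chr15:40953221-40953470, plus strand): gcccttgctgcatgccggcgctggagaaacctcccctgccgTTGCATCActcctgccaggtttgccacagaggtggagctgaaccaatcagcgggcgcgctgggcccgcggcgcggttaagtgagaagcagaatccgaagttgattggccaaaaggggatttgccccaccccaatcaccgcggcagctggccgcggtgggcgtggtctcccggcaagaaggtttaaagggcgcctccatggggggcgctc
ASNS (chr7:97872409-97872658, minus strand): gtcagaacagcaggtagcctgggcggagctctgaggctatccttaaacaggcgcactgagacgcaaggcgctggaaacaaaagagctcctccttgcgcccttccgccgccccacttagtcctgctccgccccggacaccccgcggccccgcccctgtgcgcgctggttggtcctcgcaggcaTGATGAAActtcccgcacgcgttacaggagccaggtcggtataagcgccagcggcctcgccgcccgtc
The amino acid response motif (TGATGNAA or TTNCATCA) occurred in 3.14% of the 35116 windows. Of the 6 ATF4-linked genes called lower, 5 had a window in the set and 3 of these, ATF3, CHAC1 and ASNS, held the motif. These genes were listed for a tie to ATF4, which binds this motif, so the choice of genes in part fixed that share. No share was computed for listed genes that were not called, and a cause of the falls was not tested. Of the 7 sterol genes called lower, 5 had a window and 4, HMGCS1, IDI1, GGPS1 and MSMO1, held a CCAAT box, against 32% of all windows. The CCAAT box was as frequent in the ATF4-linked genes called lower, in 4 of 5, and was held by 1 of the 3 fatty acid genes with a window. VEGFA, FDFT1 and SQLE had no window in the set.

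The other genes of the 15 largest called falls were of mixed function and formed no list. CDKN1A, the p21 cell cycle inhibitor, was at 1.00 and 0.60 TPM in K and at 8.52 and 10.9 TPM in sgGal4 (log2 fold change -2.58, SE 0.44, adjusted p = 0.011), and BBC3, a p53-linked promoter of apoptosis, at 1.60 and 2.24 TPM against 10.1 and 13.9 TPM (log2 fold change -2.15, adjusted p = 0.0317). SERPINB9, an inhibitor of granzyme B, fell from 40.8 and 46.0 TPM in sgGal4 to 10.7 and 9.76 TPM in K (log2 fold change -1.98, adjusted p = 0.00385). The glycolytic aldolase ALDOC fell by 2.25 (adjusted p = 0.00773) and the glucose transporter SLC2A3 by 1.47 (adjusted p = 0.00385) on the log2 scale, the 2 calls among 17 glycolysis genes, against 0.741% of all genes called lower. PLCD1, a phospholipase, fell by 2.34 (adjusted p = 0.00582), ABCB1, a drug efflux pump, by 2.12 (adjusted p = 0.0325), and the cytokine gene IL6 by 2.03 (adjusted p = 0.0391). ARHGAP25, SLCO4C1 and CTD-3148I10.1 fell by 2.37 (adjusted p = 0.0349), 2.23 (adjusted p = 0.0182) and 2.16 (adjusted p = 0.0289), the last of them listed at 0 in both K libraries. The calls of BBC3, ABCB1, IL6 and CTD-3148I10.1 were lost when any single library was left out. Among 15 immediate early genes tested, EGR1 fell by 1.04 (adjusted p = 0.0173), the 1 call in that list, against 0.741% of all genes called lower. That call was lost when any single library was left out, with log2 fold changes from -1.15 to -0.93.

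Of the genes that rose, APOC1, which encodes a small apolipoprotein, had the firmest call. It was at 682 and 669 TPM in K, at 169 and 214 TPM in sgGal4 and at 444 to 640 TPM in the other 6 libraries (log2 fold change 1.82, SE 0.133, adjusted p = 1.49e-05), and it was called in all 13 alternatives. APOE, its neighbor and the main apolipoprotein of remnant particles, rose from 49.1 and 64.0 TPM to 137 and 161 TPM (log2 fold change 1.39, SE 0.176, adjusted p = 0.00297), and was named outside the rule, after its values were seen. NEFH, a neurofilament gene, was at 22.7 and 18.1 TPM in K and at 3.47 and 3.87 TPM in sgGal4 (log2 fold change 2.19, SE 0.301, adjusted p = 0.00385), and was also called in all 13.

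The largest called rise was that of PRG2. This gene, which encodes the major basic protein of eosinophil granules, was at 9.46 and 7.51 TPM in K, listed at 0 and at 0.26 TPM in sgGal4, and at 1.57 to 5.59 TPM in the other 6 (log2 fold change 3.07, SE 0.434, adjusted p = 0.00385). NCKAP1L, ARHGDIB, LAPTM5 and EVI2B, each known from leukocytes, had log2 fold changes of 2.51 (adjusted p = 0.025), 2.24 (adjusted p = 0.0187), 1.99 (adjusted p = 0.0459) and 1.84 (adjusted p = 0.0427). ACVR2A, an activin receptor, was at 8.80 and 7.07 TPM in K, 0.70 and 1.39 TPM in sgGal4 and 0.48 to 2.04 TPM in the other 6 libraries, so that K stood apart from all of them (log2 fold change over sgGal4 2.14, SE 0.458, adjusted p = 0.0349). SOD3, the extracellular superoxide dismutase, rose by 2.35 (adjusted p = 0.00986), LBH, a transcription cofactor, by 2.15 (adjusted p = 0.00773), FAM178B by 1.96 (adjusted p = 0.0203), ZNF35 by 1.54 (adjusted p = 0.0385) and RBM14-RBM4 by 2.43 (adjusted p = 0.00986), the last being a readthrough transcript that shares reads with its 2 parent genes. These are values on log2(TPM + 1), which understates the change of low genes. The calls of NCKAP1L, ACVR2A, LAPTM5, FAM178B, EVI2B and ZNF35 were lost when any single library was left out.

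**Figure D4:**
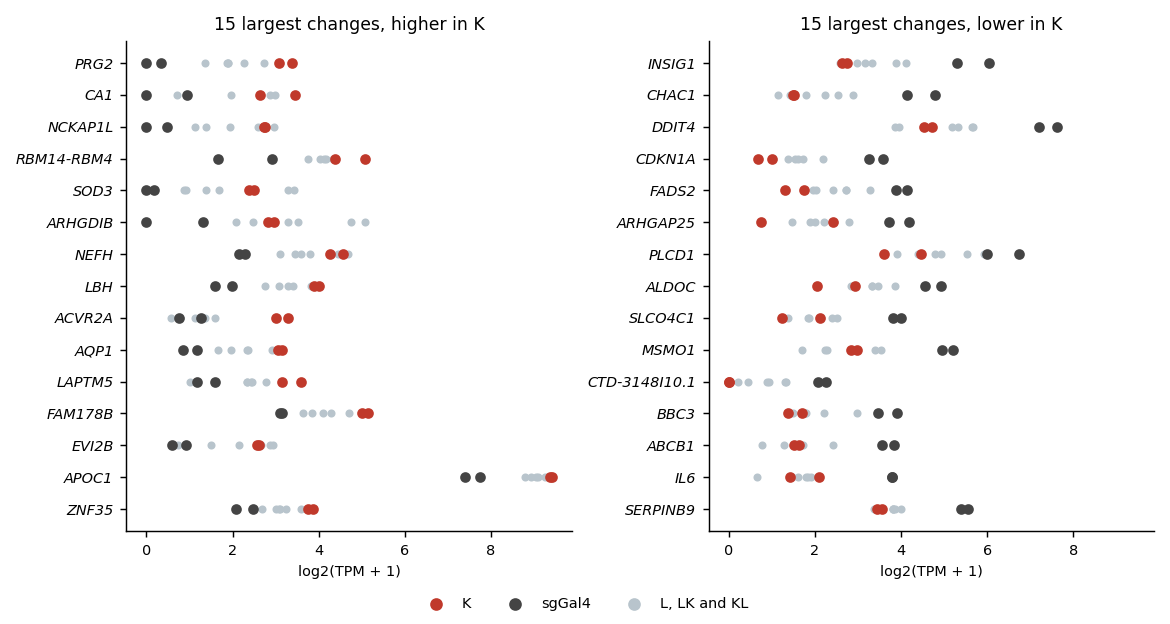
log2(TPM + 1) (horizontal axes) of the 15 largest called rises (left) and the 15 largest called falls (right), with red points for K, dark points for sgGal4 and pale points for the 6 libraries of L, LK and KL. The K and sgGal4 points do not overlap in any of the 30 genes, a condition the choice of genes imposed.

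Markers of other blood cells were read in the same libraries. Apart from PRG2, none was called by limma, and 4 of 6 tested megakaryocyte, 1 of 4 monocyte or neutrophil and 1 of 2 lymphoid genes had an unadjusted p under 0.05, against 15.6% of all genes. The list of eosinophil, basophil and mast cell genes summed to 11.3 and 13.3 TPM in K, 2.07 and 0.80 TPM in sgGal4 and 2.61 to 7.05 TPM in the other 6, with 7 of 15 genes at 0 in every library. PRG2 was the largest part of it, and the part of such cells in the rise of PRG2 was not tested. The lymphoid list had 6 of 12 genes at 0 in every library. Its sum was 10.6 and 15.2 TPM in K, 27.3 and 35.9 TPM in sgGal4 and 2.33 to 28.8 TPM in the other 6. CD3D, at 7.16 to 10.8 TPM in K and 26.1 to 33.6 TPM in sgGal4, was the largest part of it in both arms. The log2 fold change of CD3D was -1.64 (adjusted p = 0.265), and that of CD3G, the other gene tested, was 0.92 (adjusted p = 0.533). Monocyte and neutrophil genes, with 6 of 16 genes at 0 throughout, summed to 39.8 and 33.0 TPM in K and 41.7 and 57.0 TPM in sgGal4, with CD68 at -1.01 (adjusted p = 0.132) and SPI1 at 0.20 (adjusted p = 0.841). Megakaryocyte genes, with 6 of 18 at 0 throughout, summed to 159 and 155 TPM in K, 119 and 123 TPM in sgGal4 and 96.7 to 128 TPM in the other 6. The platelet receptor gene GP1BB, at 101 to 109 TPM in K and 62.2 to 73.0 TPM in sgGal4, was the largest part of this sum. Its log2 fold change was 0.63 (adjusted p = 0.111), and that of RUNX1 was -0.03 (adjusted p = 0.964). Of the 6 tested megakaryocyte genes, 4 were below 0 and 2 above, with a median of -0.04. The 4 at an unadjusted p under 0.05 were 2 lower and 2 higher.

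Of 39 tested histone genes, 4 rose and none fell, against 0.879% of all genes called higher, and 35 had a log2 fold change above 0, against 54.6% of all genes, with a median of 0.49. Under quantile normalization 1 rose and 1 fell, with a median of 0.34. HIST1H3J rose by 1.30 (adjusted p = 0.0182), HIST1H2BO by 0.76 (adjusted p = 0.039), HIST1H2AM by 0.65 (adjusted p = 0.0366) and HIST1H2AH by 0.62 (adjusted p = 0.0163). With only the compared groups in the fit, limma kept the call of HIST1H3J (adjusted p = 0.0425). The calls of HIST1H2BO (adjusted p = 0.123), HIST1H2AM (0.159) and HIST1H2AH (0.142) were lost in that fit. HIST1H2AD, which did not pass, was listed at 0 in both K libraries and at 255 and 7.88 TPM in sgGal4. Of 74 tested ribosomal protein genes, a set picked after the values were seen, 11 rose and 1 fell. Of all genes tested, 0.879% were called higher and 0.741% lower. The median of the 74 was 0.33, against 0.06 over all genes. But under quantile normalization 3 rose and 1 fell with a median of 0.13, and under median-of-ratios size factors 5 rose and 1 fell with a median of 0.27. RPL23 was at 1767 and 1727 TPM in K and 968 and 1068 TPM in sgGal4 (log2 fold change 0.78, adjusted p = 0.00401), and RPL8 was the one that fell (log2 fold change -0.55, adjusted p = 0.024).

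Ribosomal protein genes together made up 10.5% of TPM in each K library, 7.36 and 8.91% in sgGal4, and 9.84 to 10.8% in the other 6. Members of these families share near-identical copies and pseudogenes, so single members are uncertain. Without sgGal4 replicate 2, calls of higher ribosomal protein genes numbered 31 and of histone genes 12, whereas without K replicate 1, K replicate 2 or sgGal4 replicate 1 they numbered 0 to 2 and 0.

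Protein genes of the mitochondrial genome moved with the share of mitochondrial reads given above. Of 13, 6 were called lower, against 0.741% of all genes called lower. These were MT-CO1, MT-CO2, MT-CO3, MT-ND4, MT-ND4L and MT-ND5, with log2 fold changes of -0.38, -0.44, -0.54, -0.79, -0.55 and -0.91. MT-ND6 was called higher at 0.62, against 0.879% of all genes called higher. The number called lower was 1 without K replicate 1, 1 without K replicate 2, 3 without sgGal4 replicate 1 and 10 without sgGal4 replicate 2. MT-ND6 lies on the opposite strand and overlaps MT-ND5, and whether the counting used strand is not given in the sources used here. With quantile normalization the median of the 13 genes was -0.06 in place of -0.38, and 2 were called lower and 2 higher, and with median-of-ratios size factors 2 were called lower and none higher.

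Further lists held no gene called by limma, with 1 of 14 KRAB corepressor genes, 0 of 12 in the LSD1 and CoREST list, 0 of 5 interferon-stimulated genes and 2 of 24 replication and mitosis genes at an unadjusted p under 0.05, each a share below the 15.6% of all genes. The KRAB corepressor genes TRIM28 and CHD4 had log2 fold changes of 0.34 (adjusted p = 0.442) and -0.12 (adjusted p = 0.813) among 14 tested. In the LSD1 and CoREST list of 12 genes, HDAC2 and GSE1 stood at -0.09 (adjusted p = 0.886) and -0.05 (adjusted p = 0.926). Of 5 interferon-stimulated genes, ISG15 stood at 0.28 (adjusted p = 0.834), and of 24 replication and mitosis genes, MCM4 and CDK1 at -0.28 (adjusted p = 0.525) and 0.05 (adjusted p = 0.943).

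K was then set against the mean of the other 3 sgHS2 groups, to ask where dCas9-KRAB alone differed from dCas9-LSD1 and the dual repressors. Of 10127 genes, 1 was called (0.00987%), ZNF10, which was lower in K by 5.20 on the log2 scale (SE 0.268, adjusted p = 1.5e-07). At an unadjusted p under 0.05 there were 712 genes (7.03%). The globin sums, tested in the same fit, were higher in K. Summed β-like globin TPM was 1572 and 1513 in K, 1707 and 1627 in L, 1015 and 965 in LK and 686 and 648 in KL, so K stood slightly below L and above both dual-repressor groups (log2 difference from the mean of the 3 groups 0.58, SE 0.0807, adjusted p = 0.0233). HBG1 plus HBG2 stood at 829 and 712 TPM in K, 663 and 617 in L, 436 and 485 in LK and 281 and 269 in KL, highest in the 2 K libraries (log2 difference 0.83, SE 0.122, adjusted p = 0.0337). Both calls were lost when any single one of the 8 sgHS2 libraries was left out, with adjusted p-values from 0.0617 to 0.554 for the β-like sum and from 0.0626 to 0.554 for the γ-globin sum.

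HBE1 was at 695 and 759 TPM in K, 1019 and 986 TPM in L, 557 and 458 TPM in LK and 384 and 361 TPM in KL, and its difference from the mean of the 3 groups did not pass (0.34, SE 0.105, adjusted p = 0.632). HBD, at a log2 difference of 0.99 (SE 0.2, adjusted p = 0.189), and ACVR2A, at 2.12 (SE 0.374, adjusted p = 0.128), did not pass in this comparison either, although both K libraries lay above all others.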

How the data were processed

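RNA-seq of 10 K562 libraries in 5 groups of 2 was analysed from the TPM values that the authors deposited per gene symbol. Per the study's methods, reads were aligned to hg19 with STAR 2.5.2b, keeping reads with one location, and TPM was computed with RSEM, whose version and annotation are not given in the sources used here. The methods name one library kit and the labels another, which selects poly(A) RNA and keeps strand. TPM keeps no depth, and counts were not analysed here, so the count test named in the methods was not run and precision rests on the 2 libraries per group. Listed genes summed to under 1000000 TPM in each library, and some genes are not reported here.

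All 10 libraries were fitted together with limma 3.58.1 (R 4.3.3, mean-variance trend) on log2(TPM + 1), for genes averaging 1 TPM or more, and with 5 residual degrees of freedom and Benjamini-Hochberg adjustment over all genes. Summed globin TPM entered the same fit as added features. Checked on simulated data for K against sgGal4 over 10127 genes, the fit called 18% of genes changed by a log2 value of 1, 65% of those changed by 2, and 5 unchanged genes. The simulated noise was drawn for each gene on its own, with no shift shared by the genes of a library. Calls that arise from a difference between libraries, such as that in mitochondrial share, were thus not checked. Groups came from sample titles. Genes named were the globins and regulators, the 15 largest called changes in each direction, called list members, and the most abundant members, up to 2, of lists without a call. The members and lists were chosen with earlier results of these data known. Alternatives were 9 settings of scaling, filter, pseudocount and model, and leaving out each library.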

Additional observations from a re-analysis of the deposited data

Results flagged for a closer look

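The difference of K from the mean of L, LK and KL was tested in the same fit and passed the threshold for 3 measures (limma, adjusted p under 0.05). For ZNF10 the log2 difference was -5.20 (adjusted p = 1.5e-07), with both libraries labelled dCas9-KRAB at or under 3.80 TPM and the other 6 sgHS2 libraries at 31.5 TPM or more. Summed β-like globin TPM differed by 0.58 (adjusted p = 0.0233). Both K libraries were above the 4 libraries of LK and KL and below the 2 of L. HBG1 plus HBG2 differed by 0.83 (adjusted p = 0.0337) and was higher in both K libraries than in the other 6. The β-like sum lost its call with median-of-ratios size factors (adjusted p = 0.213) and without the mean-variance trend (0.471). The γ-globin sum lost its call in these 2 settings (0.218 and 0.404). It was also lost without a filter on low values (0.145), with quantile normalization (0.124) and with mitochondrial genes removed (0.157).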

How the results depend on the processing

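Between K and sgGal4, the 164 genes called became 51 without a filter on low values (14466 genes tested), 14 without the mean-variance trend and 59 with only the compared groups in the fit, and 9 to 231 with a library left out. Of listed genes, 43 calls became 16, 5 and 27 in the same settings and 5 to 48 with a library left out. Quantile normalization gave 79 calls higher and 102 lower, median-of-ratios size factors 85 and 102, and the fit of the compared groups alone 19 and 40, against 89 and 75. The share of calls that were higher was 54.3% with all libraries, 23.3% without K replicate 1, 33.3% without K replicate 2, 34.8% without sgGal4 replicate 1 and 78.4% without sgGal4 replicate 2. The summed β-like globin change was -0.66 with adjusted p = 0.214 without the trend and 0.0839 with the compared groups alone, and ranged from -0.69 to -0.63 with a library left out. HBE1 stayed at -1.04 but had adjusted p = 0.111 without the trend, and ranged from -1.16 to -0.92 with a library left out. HBG1 plus HBG2 passed in no alternative, and its log2 fold change ranged from -0.46 to -0.01 with a library left out. HBD was called in 3 of the 9 settings (adjusted p from 0.0333 to 0.141). Against the other sgHS2 groups, the 1 call became 9 without a filter, 3 with a minimum mean of 10 TPM, 2 with each of the median-of-ratios, quantile and mitochondria-free scalings, and 5 with the compared groups alone. The cause of these changes was not tested. For the 63 other genes that the naming rule chose, 161 of 539 checks under another setting and 159 of 252 with a library left out lost the call, and none reversed, with MT-CO1 and MT-ND4L at 0.00 under quantile normalization.

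Replicate numbers did not pair the libraries, since deviations of same-numbered libraries correlated between -0.0213 and 0.0229 across genes. A replicate block gave 118 genes called in place of 164, 111 of them shared, and the summed β-like globin change kept its call (-0.66, adjusted p = 0.00822). With 1 library left in an arm, that library is assumed to vary like the others. Depth is unknown, so what counting error limits could not be set.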
